A study of Rattus norvegicus with 36 samples.

Results

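Ankrd1, Csrp3, Flnc, Actn2 and Des were followed across every group of a rat muscle study of contraction. They are 5 of the 4736 genes that the platform annotation names by a single symbol, and 6 of the 8740 probe sets, since Flnc has 2. The genes were selected on results of these data, from the difference between polysomal RNA 6 h after contractions and the polysomal control, so that difference is described here and not tested. All 6 probe sets passed the filter on low signals, which left 6707 probe sets for testing.

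The tissue was rat skeletal muscle, with the source written as "ta" in the labels, and the series title speaks of acute resistance exercise. RNA was hybridised to 36 one-colour arrays, 2 for each of 18 numbered samples, called numbers here as in the titles. Total RNA was taken 1 h (2 numbers, 4 arrays) and 6 h (4 numbers, 8 arrays) after resisted contractions, and polyribosomal RNA 1 h (2 numbers, 4 arrays) and 6 h (4 numbers, 8 arrays) after them. A polysomal control without contractions had 4 numbers on 8 arrays. A second control, titled 1hr polysome, had 2 numbers on 4 arrays. Its description names no polyribosomes, so its RNA fraction is not settled by the labels. It is written "the 1hr control" from here on. A difference of total RNA from it may mix contractions with RNA fraction, which cannot be told apart here. Both controls were described as collected at 1 h, so none was matched to 6 h. The sources used here give no strain, sex, age or contraction protocol, and nothing in the labels says whether the numbers were separate animals.

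The Z disc is the border of the sarcomere, where thin filaments of neighbouring sarcomeres are anchored, and it is also a place where load on the fibre is sensed. Actn2 encodes alpha-actinin 2, which cross-links actin filaments there, and Des encodes desmin, the intermediate filament that ties Z discs to each other and to the membrane. Flnc encodes filamin C, an actin cross-linker of the Z disc and the costamere, which gathers at damaged sarcomeres. Csrp3 encodes the muscle LIM protein, a Z disc and nuclear partner of alpha-actinin, and Ankrd1 encodes the ankyrin repeat protein CARP, which binds titin and also enters the nucleus. Ankrd1 and Csrp3 are well known for rising in stretched or overloaded striated muscle, whereas Actn2 and Des are mainly structural.

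Promoter sequences are shown to set Flnc, whose signals ran with those of Ankrd1 and Csrp3, beside Actn2 and Des. The RefSeq table (build GRCr8) held 3 of the 5 members, Flnc, Actn2 and Des, and not Ankrd1 or Csrp3. Each sequence is the 250 bases before the gene start, on the plus strand, 5′ to 3′. Capitals mark matches, on either strand, to 5 motifs: the CArG box of serum response factor, CATTCC (the MCAT element of TEAD factors), CANNTG (the E-box), TGANTCA (AP-1) and TATAAA. The windows are chr4:58999297-58999546 for Flnc, chr17:62834805-62835054 for Actn2 and chr9:84299376-84299625 for Des.
Flnc: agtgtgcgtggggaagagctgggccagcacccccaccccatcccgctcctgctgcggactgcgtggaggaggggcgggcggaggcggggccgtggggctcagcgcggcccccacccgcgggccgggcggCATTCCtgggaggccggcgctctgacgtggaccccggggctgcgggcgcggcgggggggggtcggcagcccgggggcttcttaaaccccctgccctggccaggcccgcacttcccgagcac
Actn2: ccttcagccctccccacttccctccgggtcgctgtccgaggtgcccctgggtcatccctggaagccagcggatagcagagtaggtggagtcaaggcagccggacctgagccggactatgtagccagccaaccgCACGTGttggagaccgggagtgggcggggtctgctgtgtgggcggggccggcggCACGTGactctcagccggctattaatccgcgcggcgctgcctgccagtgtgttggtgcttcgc
Des: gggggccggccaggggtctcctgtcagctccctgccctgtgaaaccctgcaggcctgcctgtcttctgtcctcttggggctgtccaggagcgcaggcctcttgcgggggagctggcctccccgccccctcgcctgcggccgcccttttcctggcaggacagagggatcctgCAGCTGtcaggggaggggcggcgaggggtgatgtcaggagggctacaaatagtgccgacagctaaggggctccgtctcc

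The Flnc window held 1 MCAT match, at bases -121 to -116 from the start, a motif found in 12.1% of the 33469 windows of the table. The Actn2 window held 2 E-boxes, at -117 to -112 and -63 to -58, and the Des window 1, at -79 to -74; an E-box was found in 65.5% of all windows. The CArG box was found in 1.5% of all windows, AP-1 in 6.34% and TATAAA in 12.9%, and in none of these 3. The windows are rich in G and C, at 78.4% for Flnc, 67.2% for Actn2 and 68.8% for Des. These matches describe the letters only, and no motif overlapped another.

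Several arrays stood apart, and some of the results that rest on them are also given without them. In total RNA at 6 h, array 1bA gave an Ankrd1 signal of 939, inside the range of the controls, while the other array of its number gave 23757. Its Hspa1a and Atf3 signals, both genes high on most other arrays after contractions, were 1098 and 827 against 15340 and 13370 on its mate. In the 1hr control, array 2bA correlated at r = 0.914 with its mate and at a mean of 0.945 with the total RNA arrays at 1 h. Its Myh7 signal was 12670 against 2879 to 4120 on the other 3 arrays. These 3 had mean correlations of 0.907 to 0.921 with those total RNA arrays. With the arrays of both controls they had 0.952 to 0.955, and array 2bA had 0.911. In polysomal RNA at 1 h, number 1 had Ankrd1 at the control level, although its Hspa1a signals of 7299 and 5480 were far above the controls, where the highest was 896. In number 2 of that group, array 2aA had an Atf3 signal of 1624, while a control array reached 1869. Its mate gave 4832, and number 1 gave 18680 and 17720. In total RNA at 6 h, number 3 had a ratio of 3′ to 5′ actin probe sets of 9.01 and 11.5, a measure of RNA integrity, against at most 4.48 on all other arrays. Of the 17 skeletal fibre markers, 14 were on the array, and none was at or under the floor on every array. Ckm was at or under it on 21 arrays, Acta1 on 6 and Pvalb on 2. The summed signal of the 14 ran from 86830 to 419600. For 7 fibroblast and matrix markers it ran from 20520 to 38970 in the 1hr control. Without overlap, it ran from 40810 to 65850 in total RNA at 6 h, but from 31220 to 81180 in the polysomal control. The summed signal of 4 macrophage markers ran from 2308 to 3461 in the 1hr control, from 2724 to 6726 in total RNA at 6 h and from 4811 to 16290 in polysomal RNA at 6 h. The part of these differences in the members' signals was not tested.

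Ankrd1 had the widest range of the 5 genes. Its signal, in the array's intensity units, had a lowest, median and highest value of 892, 1159 and 1480 on the 8 polysomal control arrays. The 4 arrays of the 1hr control gave 1661, 1039, 1023 and 507. Both controls therefore lay in one low range. In whole muscle, fewer fibres and less RNA per fibre cannot be told apart. After contractions, total RNA at 1 h gave 4153 and 5158 for number 1 and 16925 and 21397 for number 2. Polysomal RNA at 1 h gave 1006 and 818 for number 1 but 29809 and 30693 for number 2. The numbers of that group thus fell on opposite sides of the range, 1 at the control level and 1 among the highest signals of the study.

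At 6 h the Ankrd1 signals in total RNA were 939 at the lowest, 24004 at the median and 37892 at the highest. In polysomal RNA at 6 h they were 14371, 25708 and 46996. Apart from array 1bA, every array at 6 h was above every control array. The order of the group geometric means was 973 in the 1hr control, 1149 in the polysomal control, 5238 in polysomal RNA at 1 h, 9385 in total RNA at 1 h, 14887 in total RNA at 6 h and 26318 in polysomal RNA at 6 h. Each pair of neighbours in that order overlapped in its numbers. On 6 of the 36 arrays the Ankrd1 signal exceeded 90% of the brightest signal of the array, up to 98.1%, and whether its upper values were compressed was not tested.

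Csrp3 was also low in the controls and high in most samples after contractions, over a narrower range. The polysomal control gave 2600 at the lowest, 5228 at the median and 7175 at the highest, and the 1hr control gave 3685, 3664, 4306 and 3811. Total RNA at 1 h gave 4076 and 6357 for number 1 and 11989 and 12950 for number 2, and polysomal RNA at 1 h gave 4392 and 3803 for number 1 and 23600 and 23940 for number 2. Number 1 again stayed within the control range in polysomal RNA. At 6 h the lowest, median and highest signals were 2654, 13578 and 25153 in total RNA and 15830, 21755 and 31849 in polysomal RNA. The lowest signal in total RNA was again that of array 1bA, and all 8 polysomal arrays at 6 h were above all 12 control arrays.

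Flnc was read by 2 probe sets made from the same expressed sequence, rc_AA799773_at and rc_AA799773_g_at, which are not independent of each other. For rc_AA799773_at the polysomal control gave 1801, 2463 and 3704 as the lowest, median and highest signal, and the 1hr control gave 1706, 2498, 2321 and, on array 2bA, 8673. Total RNA at 1 h gave 9344, 10864, 11867 and 15377, all above every control array. Polysomal RNA at 1 h gave 3510 and 4036 for number 1 and 15701 and 14138 for number 2. Number 1 was thus near the controls in Flnc as well. At 6 h the signals were 5481, 16156 and 25169 in total RNA and 8479, 14322 and 20161 in polysomal RNA.

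The second Flnc probe set, rc_AA799773_g_at, was likewise low in the controls, apart from array 2bA at 11361, and high in most samples after contractions. Its medians were 4544 in the polysomal control, 4277 in the 1hr control, 14180 in total RNA and 14480 in polysomal RNA at 1 h, and 24008 in total RNA and 15864 in polysomal RNA at 6 h. Its highest signals, 50323 and 47582, came from number 3 of total RNA at 6 h, the sample with the high 3′ to 5′ actin ratio. There it was 4.34 and 3.4 times the signal of rc_AA799773_at, against at most 2.71 times on the other arrays.

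Actn2 signals lay close together in all groups. The polysomal control gave 6561, 8387 and 12212 as the lowest, median and highest signal, and the 1hr control gave 7100, 9027, 8019 and, on array 2bA, 18582. Total RNA at 1 h gave 15590, 16245, 8255 and 14544, and polysomal RNA at 1 h gave 10978, 11727, 10593 and 12149. The 2 numbers of polysomal RNA at 1 h, which were far apart in Ankrd1, were at 11346 and 11344 in Actn2. At 6 h the signals were 8585, 13624 and 22529 in total RNA and 6033, 7646 and 12895 in polysomal RNA. The group geometric means ran from 8177 in polysomal RNA at 6 h, through 8480 in the polysomal control, 9886 in the 1hr control, 11345 in polysomal RNA at 1 h and 13205 in total RNA at 1 h, to 14024 in total RNA at 6 h. The numbers ran from 10957 to 20793 in total RNA and from 7483 to 9748 in the polysomal control, which took part in choosing the members. Those of the 1hr control reached 12207 and those of polysomal RNA at 6 h began at 6392.

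Des was bright in every group. The polysomal control gave 9538, 12936 and 21273 as the lowest, median and highest signal, and the 1hr control gave 23787, 25572, 18018 and 18875. Total RNA at 1 h gave 10315, 13342, 7684 and 13513, below every array of the 1hr control, and polysomal RNA at 1 h gave 26611, 28630, 14925 and 17250. These groups reversed the order seen for Ankrd1, with the 1hr control high and total RNA at 1 h low. At 6 h the signals were 9430, 15679 and 46263 in total RNA, where the arrays of number 3 gave 45233 and 46263, and 7022, 16888 and 33042 in polysomal RNA. Des signals in the controls thus overlapped those of every group after contractions.

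**Figure D1:**
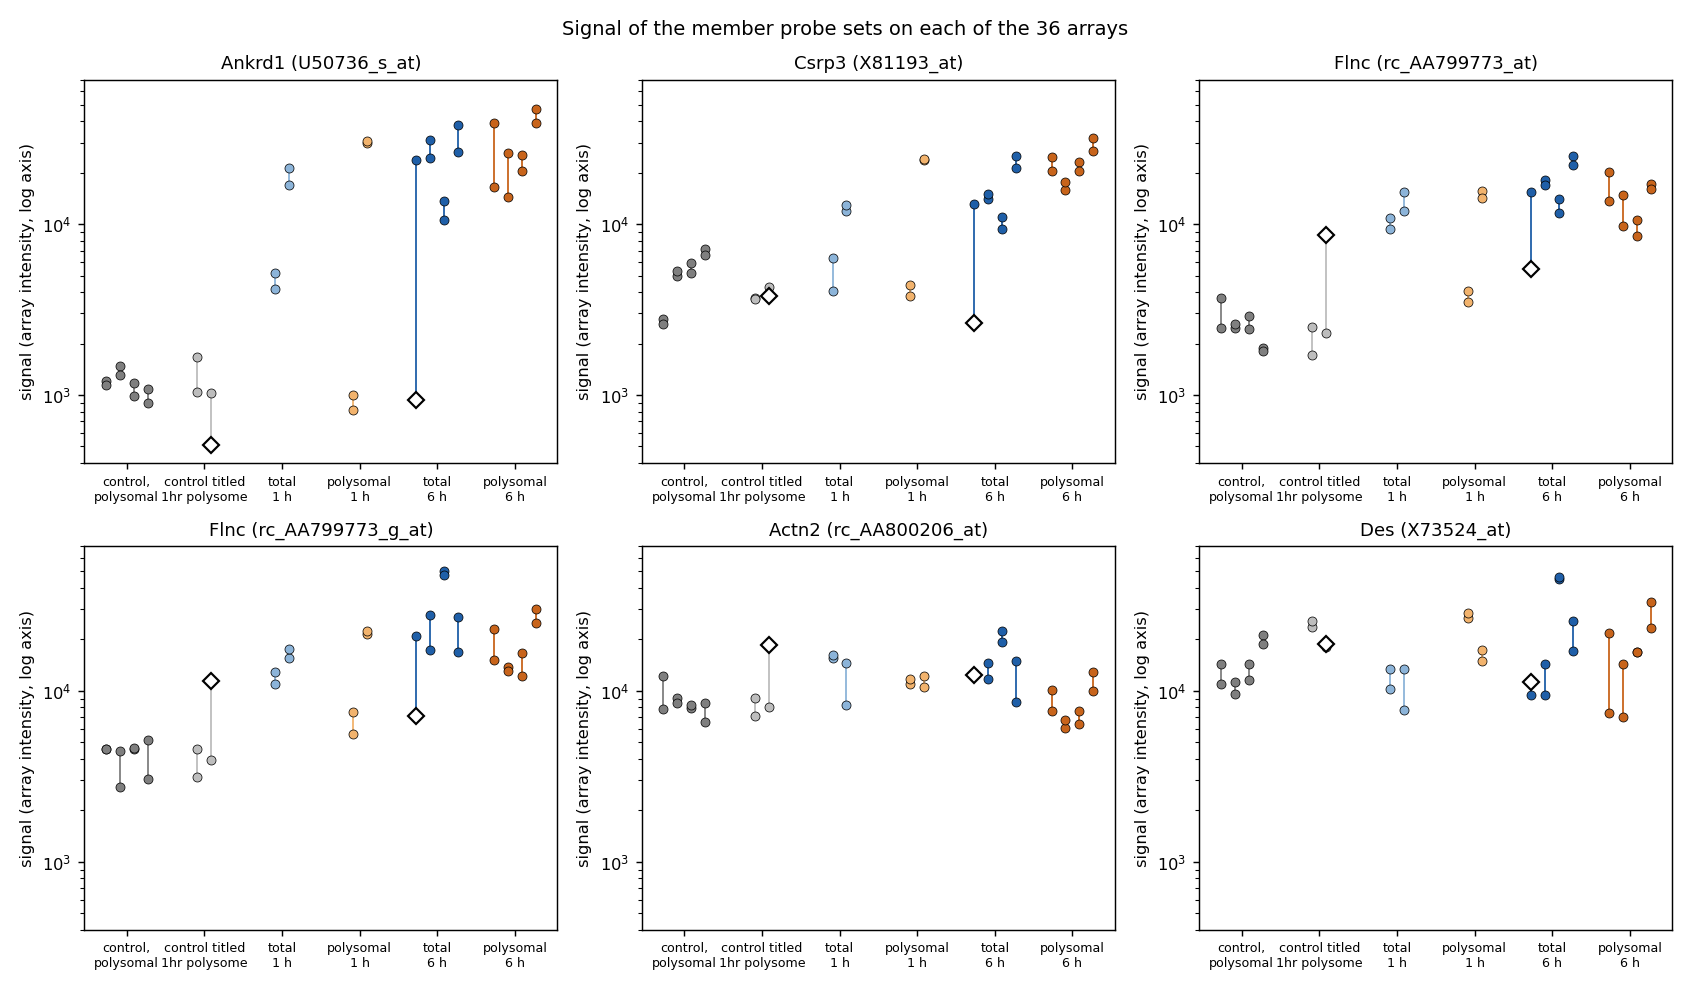
Signal of each member probe set on all 36 arrays (log axis, array intensity), by group, with 1 point per array and a line joining the 2 arrays of a number; open diamonds are array 1bA of total RNA at 6 h and array 2bA of the 1hr control. Ankrd1, Csrp3 and Flnc are low in both controls, apart from Flnc on array 2bA, near the controls in number 1 of polysomal RNA at 1 h, and high in most samples after contractions, up to 46996 for Ankrd1, while Actn2 and Des lie in a narrower range in which the 1hr control overlaps most groups.

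The difference that chose the members, polysomal RNA at 6 h minus the polysomal control (4 numbers each), is given as a description. On the log2 scale it was 4.52 (SE 0.84) for Ankrd1, a 22.9-fold higher mean, 2.21 (SE 0.51) or 4.62-fold for Csrp3, 2.43 (SE 0.40) and 2.11 (SE 0.41) for the probe sets of Flnc, 0.21 (SE 0.42) for Des and -0.05 (SE 0.23) for Actn2. In 4 of the 6 probe sets, those of Ankrd1, Csrp3 and Flnc, every number at 6 h was above every control number, which held for 2.64% of all probe sets tested; nothing is read from that count, since this difference chose the genes. The labels name contractions, and stretch was not measured.

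In total RNA, whose arrays were not part of that difference, the same genes were the higher ones at 6 h. This is no independent support, since the members were chosen with earlier results of these data known. The labels also do not say whether total and polysomal RNA of the same number came from the same muscle. Against the 1hr control, the log2 difference was 3.94 (SE 1.03, 15.3-fold, n = 4 against 2) for Ankrd1, 2.29 (SE 0.49, 4.88-fold) and 2.19 (SE 0.51, 4.56-fold) for the probe sets of Flnc, and 1.63 (SE 0.63, 3.09-fold) for Csrp3. All numbers at 6 h were above both control numbers in these 4 probe sets, as in 9.17% of all probe sets. Actn2 was 0.50 (SE 0.28) higher and Des was at -0.21 (SE 0.52), both with overlapping numbers.

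None of the 6 probe sets passed an adjusted p of 0.05 (limma, Benjamini-Hochberg over 6707 probe sets, n = 4 against 2), at which 27 probe sets, or 0.403%, were called; 4 of the 6 had an unadjusted p under 0.05, as did 13.3% of all probe sets. The adjusted p-values (limma) were 0.0561 and 0.0683 for Flnc, 0.112 for Ankrd1, 0.271 for Csrp3, 0.452 for Actn2 and 0.880 for Des. Without array 1bA, the difference was 4.52 for Ankrd1 (limma adjusted p = 0.0321) and 2.47 and 2.39 for Flnc (0.0177 and 0.0221), beside 1.21% of all probe sets called. That array stood out by its low Ankrd1 and Csrp3 signals, so leaving it out could only raise the Ankrd1 difference, and these values are no independent support. Without array 2bA of the control, on which Flnc itself was high, the Flnc probe sets passed and no other member did (2.76 and 2.57, limma adjusted p = 0.00725 and 0.0112) beside 4.56% called, and Ankrd1 was at 3.68 (0.0536). Without both arrays, Ankrd1 was at 4.27 (limma adjusted p = 0.0169), Flnc at 2.95 and 2.77 (0.00245 and 0.00468) and Csrp3 at 1.87 (0.0659), beside 6.07% of all probe sets called. These exclusions were chosen after the data were seen. With the polysomal control in place of the 1hr control, 4 of the 6 passed, among them Actn2 at 0.73 (limma adjusted p = 0.0446), beside 937 of the 6707 probe sets called. Those control arrays took part in choosing the members. They hold polysomal RNA, so contractions and RNA fraction cannot be told apart in that difference. Within polysomal RNA at 6 h, Actn2 was at -0.05 (SE 0.23) against the same control.

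At 1 h the differences in total RNA pointed the same way. Against the same 1hr control (n = 2 against 2), the log2 difference was 3.27 (SE 1.19, 9.65-fold) for Ankrd1, 1.94 (SE 0.56, 3.83-fold) and 1.47 (SE 0.58, 2.78-fold) for Flnc and 1.05 (SE 0.72, 2.06-fold) for Csrp3. In these 4 of 6 probe sets both numbers were above both control numbers, but so they were in 27.7% of all probe sets. Des was at -0.96 (SE 0.59) without overlap, as were 22.1% of all probe sets, and Actn2 was 0.42 (SE 0.32) higher with overlap.

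None of the 6 passed in total RNA at 1 h (limma, Benjamini-Hochberg), where 5 probe sets, or 0.0745%, were called; 3 of the 6 had an unadjusted p under 0.05, as did 11.1% of all probe sets. The adjusted p-values (limma) were 0.234 and 0.355 for Flnc, 0.317 for Ankrd1, 0.643 for Csrp3, 0.694 for Actn2 and 0.595 for Des. Without array 2bA of the control, Flnc (rc_AA799773_at) was at 2.41 (limma adjusted p = 0.0319), beside 3.01% of all probe sets called. Within total RNA, 6 h minus 1 h gave 0.67 (SE 1.03) for Ankrd1, 0.58 (SE 0.63) for Csrp3, 0.35 (SE 0.49) and 0.72 (SE 0.51) for Flnc, 0.09 (SE 0.28) for Actn2 and 0.75 (SE 0.52) for Des. All 6 lay above 0 with a median of 0.62, against 0.05 over all probe sets, but the numbers overlapped in all 6. None passed, and 4 probe sets or 0.0596% were called. None of the 6 had an unadjusted p under 0.05, while 7.71% of all probe sets did. Without array 1bA of total RNA at 6 h, Ankrd1 was at 1.25 (SE 0.94) and Csrp3 at 0.87 (SE 0.57), and neither passed.

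The 2 numbers of polysomal RNA at 1 h disagreed on Ankrd1, Csrp3 and Flnc, so their mean describes neither. Against the 1hr control, the log2 difference was 2.43 (SE 1.19) for Ankrd1, 1.35 (SE 0.72) for Csrp3, 1.30 (SE 0.56) and 1.24 (SE 0.58) for Flnc, 0.20 (SE 0.32) for Actn2 and -0.02 (SE 0.59) for Des. Only Csrp3 had both numbers above both control numbers, as did 12.7% of all probe sets. No probe set of the array was called in this comparison (0% of 6707, limma); 299 (4.46%) had an unadjusted p under 0.05, 1 of them a member, Flnc rc_AA799773_at. Number 2 alone put Ankrd1 4.96 above the control, with the lone sample assumed to vary like the other groups, and number 1 alone put it at -0.10. The result thus follows from which number is kept, and the spread between the 2 numbers is left out. With number 2 alone, 0.686% of all probe sets were called (limma), which for the same reason is no test of polysomal RNA at 1 h.

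The same number was the lower one in total RNA at 1 h, where Ankrd1 stood at 4628 in number 1 and 19030 in number 2, and Csrp3 at 5090 and 12460. Whether the same number marks the same animal in total and polysomal RNA is not stated in the labels. Polysomal minus total RNA at 1 h was -0.84 (SE 1.19) for Ankrd1, 0.31 (SE 0.72) for Csrp3, -0.64 (SE 0.56) and -0.23 (SE 0.58) for Flnc, -0.22 (SE 0.32) for Actn2 and 0.94 (SE 0.59) for Des. Des was the only member whose 2 polysomal numbers both lay above the total RNA numbers, as did 19.1% of all probe sets. None of the 6 passed (limma, Benjamini-Hochberg; 26 probe sets or 0.388% called; none of the 6, and 15.8% of all probe sets, under an unadjusted p of 0.05). The comparisons with the 1hr control share its 4 arrays, so their differences are not independent of one another.

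At 6 h, polysomal minus total RNA is described without a test, because the polysomal arrays chose the members. It was 0.82 (SE 0.84) for Ankrd1, 0.89 (SE 0.51) for Csrp3, -0.15 (SE 0.40) and -0.38 (SE 0.41) for Flnc, -0.78 (SE 0.23) for Actn2 and -0.23 (SE 0.42) for Des. Actn2 had the largest difference relative to its SE, with 8817, 6392, 7001 and 11333 in the polysomal numbers and 12565, 13103, 20793 and 11300 in the total RNA numbers. Only polysomal number 4 reached the lowest total RNA number. The median over all probe sets was -0.16. Without array 1bA of total RNA, the difference was 0.24 (SE 0.77) for Ankrd1 and 0.60 (SE 0.465) for Csrp3.

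**Figure D2:**
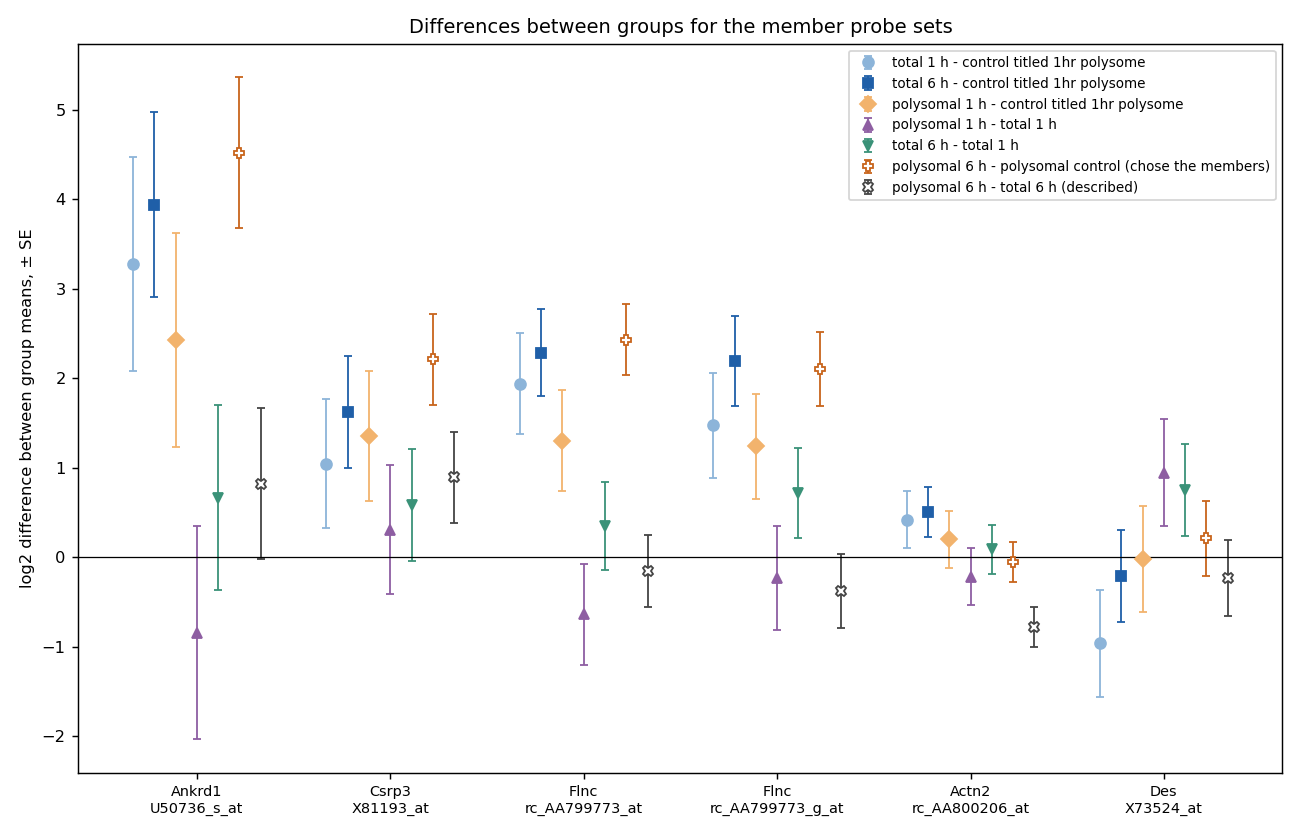
Log2 difference between group means for each member probe set (points) with the standard error of the fit (bars); filled symbols were tested and open symbols are described only. The Ankrd1 differences from controls lie between 2.43 and 4.52, those of Csrp3 and Flnc between 1.05 and 2.43, and those of Actn2 and Des between -0.96 and 0.50.

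Across the 18 numbers, Ankrd1, Csrp3 and Flnc had signals that ran together. With the brightest probe set of each gene, Pearson's r of the log2 signals was 0.93 between Ankrd1 and Csrp3, 0.87 between Ankrd1 and Flnc and 0.76 between Csrp3 and Flnc. Ankrd1 had r = 0.14 with Actn2 and -0.03 with Des, and Csrp3 had -0.06 and 0.05. Flnc had r = 0.54 with Actn2 and 0.25 with Des, and Actn2 and Des had r = 0.35 with each other. These values describe 18 samples that share groups and array scaling. The samples include polysomal RNA at 6 h and the polysomal control, whose difference chose the members, so the correlations are a description only. Total RNA number 3 at 6 h, with the high actin ratio, was the highest number in both Actn2 and Des.

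**Figure D3:**
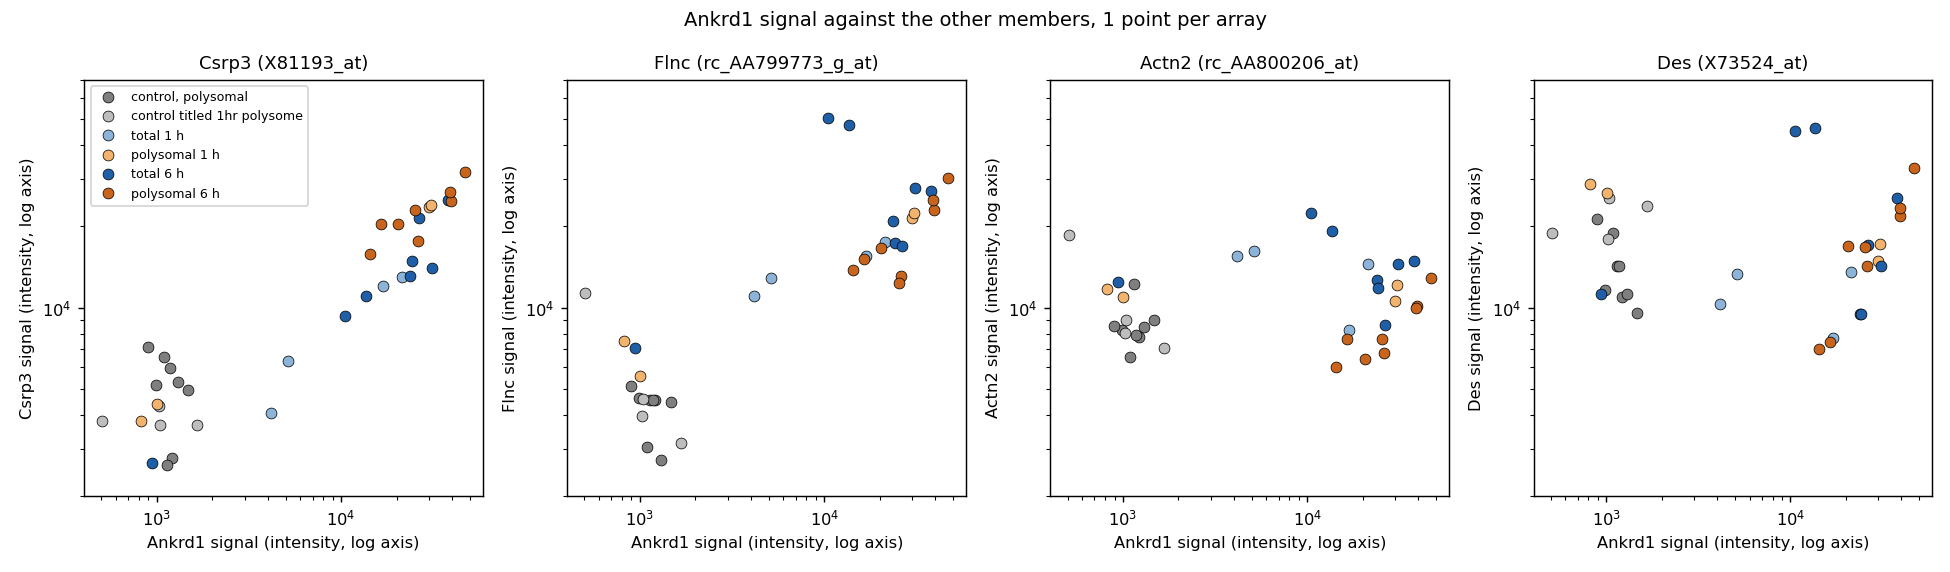
Signal of Csrp3, Flnc (rc_AA799773_g_at), Actn2 and Des against that of Ankrd1, with 1 point per array and both axes on a log scale. Csrp3 and Flnc signals are high on the arrays with high Ankrd1, with the pair of total RNA arrays of number 3 at 6 h above the rest in Flnc at 50323 and 47582, while Actn2 and Des have no common order with Ankrd1.

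Among 3902 other genes, those most like Ankrd1 were Pvr, a nectin-like adhesion receptor (r = 0.96 over 18 numbers), the member Csrp3, and Hbegf, an EGF receptor ligand (r = 0.92). Pvr was at the floor of 129.5 in the whole polysomal control and had geometric means of 384 in total RNA at 1 h, 805 in polysomal RNA at 1 h, 1524 in total RNA at 6 h and 2174 in polysomal RNA at 6 h. Hbegf ran from 146 in the 1hr control to 2016 in polysomal RNA at 6 h. Csrp3 was most like Uck2, a uridine-cytidine kinase (r = 0.94), P2rx5, an ATP-gated channel (r = 0.94), and Ankrd1. Flnc was most like Dusp5, a phosphatase of ERK (r = 0.92), Pvr (r = 0.90) and Ankrd1. The genes most like Actn2 were Casp1, Igll1 and Cxcl6 (r = 0.91, 0.90 and 0.88), and those most like Des were Myl3, a slow myosin light chain, COX3, a mitochondrial respiratory chain subunit, and Rpl23, a ribosomal protein (r = 0.93, 0.93 and 0.91). Dusp5 and the genes most like Actn2 and Des had a narrow range: Dusp5 from 302 to 767, Casp1 from 323 to 654 and Myl3 from 19350 to 29530 in group means.

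Other genes of the Z disc and the sarcomere ends did not move as a group. Of 51 genes in that list, 23 were tested, and none passed in any of the 5 tested comparisons (limma, Benjamini-Hochberg), with 1 to 4 under an unadjusted p of 0.05. In total RNA at 6 h against the 1hr control, 9 of 23 lay above 0 and the median was -0.07, against 0.08 over 3903 genes tested. The smallest p-values were those of Smpx, a small muscle protein of the costamere region, at -0.87 (SE 0.27), and Neb, nebulin, which spans the thin filament, at 0.99 (SE 0.34); their limma adjusted p-values were 0.158 and 0.209. At 1 h Synpo, an actin-binding partner of alpha-actinin, was 1.30 (SE 0.41) higher in total RNA than in the 1hr control and at -1.64 (SE 0.41) in polysomal against total RNA, with limma adjusted p-values of 0.249 and 0.0858. Without array 2bA of the control, Neb was at 1.28 at 6 h (limma adjusted p = 0.0388) and Synpo at 1.60 at 1 h (0.037), 1 of 23 genes each, a share near the 4.56% and 3.01% of all probe sets called there.

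Genes of the costamere and focal adhesion, which couple the Z disc to the membrane, were 16 tested of 37, with none called in any tested comparison and at most 4 under an unadjusted p of 0.05. In total RNA at 6 h against the 1hr control, 12 of 16 lay above 0 and the median was 0.29, against 58.5% and 0.08 over all genes tested. Itgb1, the beta 1 integrin, was at 1.02 (SE 0.28) and Tns1, tensin 1, at 0.77 (SE 0.25), with limma adjusted p-values of 0.122 and 0.179; Tns1 was at 1.08 (adjusted p = 0.0417) without arrays 1bA and 2bA, 1 of 16 genes where 6.07% of all probe sets were called. At 1 h Msn, moesin, was at 0.71 (SE 0.28) in total RNA against that control and at -0.71 (SE 0.28) in polysomal against total RNA, and was at the floor of 129.5 in the control and in polysomal RNA. Cav3, the caveolin of muscle, was at -1.58 (SE 0.65) in total RNA against that control and at 1.60 (SE 0.65) in polysomal against total RNA. In polysomal RNA at 1 h Cav3 was at 0.02 (SE 0.65) against that control. Genes of intermediate filaments and their linkers were 8 tested of 13, again with none called. Vim, vimentin, was at 1.28 (SE 0.33) in polysomal against total RNA at 1 h (limma adjusted p = 0.101). Prph, peripherin, was at -0.69 (SE 0.21) in total RNA at 1 h against the 1hr control (limma adjusted p = 0.243). Without array 2bA it was at -0.89 (limma adjusted p = 0.0368), 1 of 8 genes beside 3.01% of all probe sets. Prph was near the floor of 129.5, with geometric means of 142.1 in total RNA at 1 h and 229.5 in that control. At 6 h against that control none of the 8 had an unadjusted p under 0.05; Plec, plectin, was at 0.55 (SE 0.28) and Lmna, the lamin A gene, at 0.56 (SE 0.29), with limma adjusted p-values of 0.424 and 0.429.

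Genes known to respond to load in striated muscle were 15 tested of 23. None was called in any of the 5 comparisons (limma), and 1 to 6 had an unadjusted p under 0.05. Their median in total RNA against the 1hr control was 0.37 at 1 h and -0.03 at 6 h, against 0.01 and 0.08 over all genes tested. Ccn1, a matrix-associated growth regulator, was at 2.03 (SE 0.76) at 1 h and at -1.64 (SE 0.65) at 6 h minus 1 h, and Myh3, embryonic myosin, was at 1.47 (SE 0.44) at 1 h, with limma adjusted p-values of 0.326, 0.597 and 0.243. Myh7, slow myosin, was at 1.10 (SE 0.34) in total RNA at 6 h and at -1.82 (SE 0.39) in polysomal against total RNA at 1 h (limma adjusted p = 0.15 and 0.0611). At 6 h it passed without array 2bA, whose own Myh7 signal stood apart, at 1.5 (limma adjusted p = 0.0112). Polysomal against total RNA at 1 h does not use that array, and its -1.82 was unchanged. It passed there (limma adjusted p = 0.0233) with an SE of 0.33 in place of 0.39, beside 0.596% of all probe sets called. Without that array Myh3 was at 1.70 at 1 h (limma adjusted p = 0.0481). These are 1 of 15 genes in each comparison with the 1hr control, where 4.56% of all probe sets were called at 6 h and 3.01% at 1 h. Myh7 had geometric means of 3650 in the polysomal control and 2163 and 3706 in polysomal RNA at 1 h and 6 h. Total RNA had 7658 and 10250 at these times, and the 1hr control 4792. Myh3 in polysomal RNA at 1 h was at -0.11 (SE 0.44) against the 1hr control and -1.58 (SE 0.44) against total RNA. The part of RNA fraction in these differences was not tested.

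**Figure D4:**
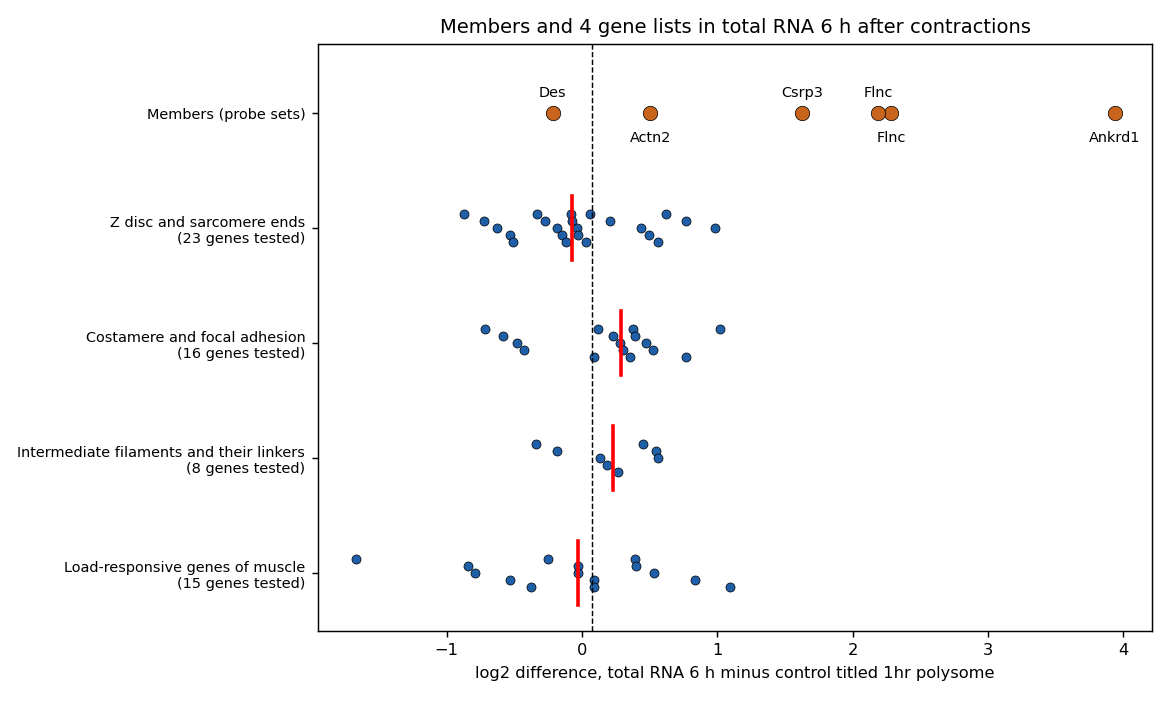
Log2 difference between total RNA at 6 h and the 1hr control for the 6 member probe sets (orange) and for the tested genes of 4 lists (blue, 1 point per gene); red bars are list medians and the dashed line is the median of all 3903 genes tested, 0.08. Ankrd1, both Flnc probe sets and Csrp3 lie at 1.63 to 3.94, to the right of every gene of the lists, of which the rightmost is Myh7 at 1.10.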

How the data were processed

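The deposited values were linear array intensities for 8799 probe sets on 36 arrays, already scaled by the authors: the 2% trimmed means lay between 801 and 801.9, so this scaling was kept. The software behind them is not given in the sources used here. All 59 control probe sets were dropped. Signals under 129.5, the 40th percentile, were set to that floor and log2 was taken. The 2 arrays of a number were averaged, which gave 18 replicates in 6 groups. One limma fit (version 3.58.1, R 4.3.3) with 12 residual degrees of freedom was run on the 6707 probe sets above the floor on 4 or more arrays. Its p-values were adjusted over all of them (Benjamini-Hochberg, threshold 0.05). Standard errors are those of this fit. A run on simulated independent replicates required only that mean estimates lie near the added changes. It does not bear on power or on replicates that are not independent. The labels do not say that numbers are separate animals, so p-values rest on a spread that may be only technical. The number of arrays limits the precision.

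Genes were named from the platform annotation, updated by Entrez ID: 7006 probe sets had 1 symbol, 308 several and 1426 none. A gene in a list or in a likeness is its brightest probe set; levels of different probe sets were not compared. Named were all member probe sets, the 3 genes most like each member, and from each list the called genes or, where none was called, up to 2 with the smallest p in the comparisons described. The members, lists and motifs were chosen with earlier results of these data known.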

Additional observations from a re-analysis of the deposited data

Results flagged for a closer look

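Among 54 sets of 4 or 8 values of the member probe sets, 3 held a value far from the others by Dixon's criterion, which chance meets in about 1 of 20 sets. In total RNA at 6 h, array 1bA had an Ankrd1 signal of 938.6 among 8 arrays, with a gap to the next array of 0.654 of the whole range. The same array had a Csrp3 signal of 2654, with a gap of 0.558. It differed from its mate 25.3-fold in Ankrd1 and 4.93-fold in Csrp3, while the median difference between these 2 arrays over all tested probe sets was 0.28 on the log2 scale. In total RNA at 1 h, array 2aA had an Actn2 signal of 8255 among 4 arrays, with a gap of 0.837 of the range. The causes were not tested.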

How the results depend on the processing

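The members and counts below come from the limma fit, whose calls were 4 in total RNA 6 h against 1 h, 5 in total RNA 1 h and 27 in total RNA 6 h against the 1hr control, 0 in polysomal RNA 1 h against that control (299 under an unadjusted p of 0.05) and 26 in polysomal against total RNA at 1 h. Of 570 alternative values for the 30 tested results of the member probe sets, 506 kept direction and side of the threshold, 34 passed it newly and 30 turned sign, none of them past the threshold. The counts in the same order, without those within 1.5 times, were as follows. The floor at the 20th percentile gave 0, 0 and, for polysomal against total RNA, 9 calls. No floor, with log2(signal + 50), gave 1 in the first comparison, 16 in total RNA at 6 h against the control and 16 in the last. All arrays with the number as a random block gave 20, 113, 195, 4 and 364. That fit took the same correlation of 0.314 between arrays of a number for all probe sets. It thus counts these arrays largely as separate replicates. No filter gave 11 and 10, and a filter of 18 arrays 2, 3 and 42. The first arrays gave 7, 27, 132 and, in the last, 7, and the second arrays 3 in total RNA at 6 h and 6 in the last. Fitting only the groups compared gave 0, 0, 0 and, in the last, 45. The polysomal control in place of the 1hr control gave 564 and 937, from arrays that helped choose the members and differ from total RNA in fraction. Numbers 1 and 2 of total RNA at 6 h gave 25 against 1 h and 777 against the control, and numbers 3 and 4 gave 766 and 238. Exclusions chosen after the data were seen gave 7 and 81 without array 1bA, 202 and 306 without array 2bA, and 7, 190 and 407 without both. Leaving out 1 number at a time gave 1 to 15, 0 to 19, 0 to 101, 0 to 46 and 1 to 85.

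With the number as a replicate block, the counts were 0, 28, 140, 0 and 206, and Flnc (rc_AA799773_at) passed in total RNA at 6 h at 2.29 (limma adjusted p = 0.0346). Deviations of same-numbered samples correlated at 0.0122 between total RNA 1 h and the 1hr control and at 0.102 between polysomal RNA 1 h and that control. They correlated at -0.22 and 0.184 between total RNA 6 h and that control, and at 0.2 between polysomal and total RNA at 1 h. The range was 0.431 to 0.538 between polysomal RNA 6 h and its control. Samples of different numbers were not compared, so whether the numbers are paired was not tested. Planned settings also brought Flnc in total RNA at 6 h past the threshold under quantile normalization (2.32, limma adjusted p = 0.0409), and Ankrd1 under the random block (3.94, 0.00882) and with first arrays only (4.16, 0.0395). Flnc (rc_AA799773_at) in total RNA at 1 h passed under the random block (1.94, limma adjusted p = 0.0398). The random block counts the 2 arrays of a number largely as separate replicates. Actn2 in total RNA at 6 h passed with the polysomal control (0.73, limma adjusted p = 0.0446), where contractions and RNA fraction cannot be told apart. Csrp3 passed under none of the alternatives.

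The values that turned sign were as follows, the main value being largest for Ankrd1 in polysomal RNA at 1 h against the control, at 2.43. Actn2 in total RNA 6 h minus 1 h was -0.0043 under quantile normalization, -0.30 with second arrays and -0.041 with numbers 1 and 2, and Ankrd1 there was -0.14 with second arrays. With second arrays Actn2 was also -0.055 in total RNA at 6 h and -0.12 in polysomal RNA at 1 h against the control. Des in polysomal RNA at 1 h against the control was 0.082 under quantile normalization, 0.0022 under 75th percentile scaling, 0.017 with second arrays and 0.64 with the polysomal control. Des in total RNA at 6 h was 0.44 with the polysomal control and 0.54 with numbers 3 and 4. Leaving out 1 number, total RNA 6 h minus 1 h ran from -0.35 to 1.69 for Ankrd1, -0.065 to 1.23 for Csrp3 and -0.18 to 0.36 for Actn2. Total RNA at 6 h against the control ran from -0.65 to 0.065 for Des. Polysomal RNA at 1 h against the control ran from -0.10 to 4.96 for Ankrd1, -0.11 to 0.50 for Actn2 and -0.41 to 0.37 for Des. Polysomal minus total RNA at 1 h ran from -3.37 to 1.69 for Ankrd1, -0.96 to 1.58 for Csrp3, -1.63 to 0.35 and -1.12 to 0.65 for Flnc, and -0.49 to 0.050 for Actn2. Except where fewer samples or probe sets entered, the cause was not tested.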
